A study of Mus musculus with 8 samples.

Results

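A group of 187 genes changed sides between the fractions of the developing mouse retina: each was more abundant in the Cd73-positive cells (Cd73PC) than in the Cd73-negative cells (Cd73NC) at postnatal day (P) 2, and more abundant in Cd73NC than in Cd73PC at P8. The genes were chosen by their measured values, as those whose FPKM + 1 was more than 1.5-fold higher in Cd73PC at P2 and more than 1.5-fold higher in Cd73NC at P8, where FPKM is the number of fragments scaled to transcript length and to the mapped total of the library. Of 21825 genes, 200 passed both limits, and 13 of these were left out by name because they belong to groups that were not considered here (the potassium channel genes Kcnab1, Kcnb2, Kcne1l, and Kcnk3, the semaphorin Sema6d, and Igf2, Igfbp5, Gng13, Pcp2, Cabp5, Lhx3, Trpm1, and Cplx1). The limits alone were passed by 8.56% of genes at P2 toward Cd73PC and by 18.6% of genes at P8 toward Cd73NC, and all 187 genes pass both by construction.

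RNA was sequenced from ICR mice, with no treatment or transgene given in the labels, in 8 libraries: whole retina at embryonic day (E) 15 and at E18, and both fractions at P2, P5, and P8. The fractions were sorted with an antibody to Cd73 from dissociated and pooled retinas, so a library averages several animals and each fraction holds all cells that fall on its side of the gate. Where a pair of levels is joined by "against", the first is Cd73NC and the second Cd73PC. Every condition was measured in 1 library. No replicate error can be given, no difference was tested, and all values describe these 8 libraries. Ratios are log2 ratios of FPKM + 1, Cd73PC over Cd73NC, so a positive ratio is higher in Cd73PC, and a difference is counted when it exceeds 1.5-fold, which is 0.58 on the log2 scale. The addition of 1 understates the ratio of genes with low FPKM.

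Cd73 is a surface enzyme that converts AMP to adenosine, and in the retina it appears early on cells that become rod photoreceptors and stays on rods. During the days covered here rods are still being born and begin to make visual pigment, while bipolar cells and Müller glia are formed later from the same pool of progenitors. Astrocytes enter the retina from the optic nerve together with growing blood vessels, and the retina also holds resident microglia. Each fraction can therefore hold several cell types, in proportions that were not measured here.

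The sort and the depth were checked in the libraries. Nt5e, which encodes Cd73, reached 2.43 FPKM in P2 Cd73NC against 97.3 in P2 Cd73PC, then 31.4 against 131 at P5 and 9.38 against 124 at P8. Nt5e was on the Cd73PC side at each stage, and its level in Cd73NC was highest at P5. All 20 genes of a list of rod genes exceeded 1.5-fold in Cd73PC at P2, P5, and P8. Depth relative to E18, read from the spacing of low FPKM values, ranged from 0.965 at E15 to 1.62 in P2 Cd73PC, and the absolute depth is unknown.

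**Figure D1:**
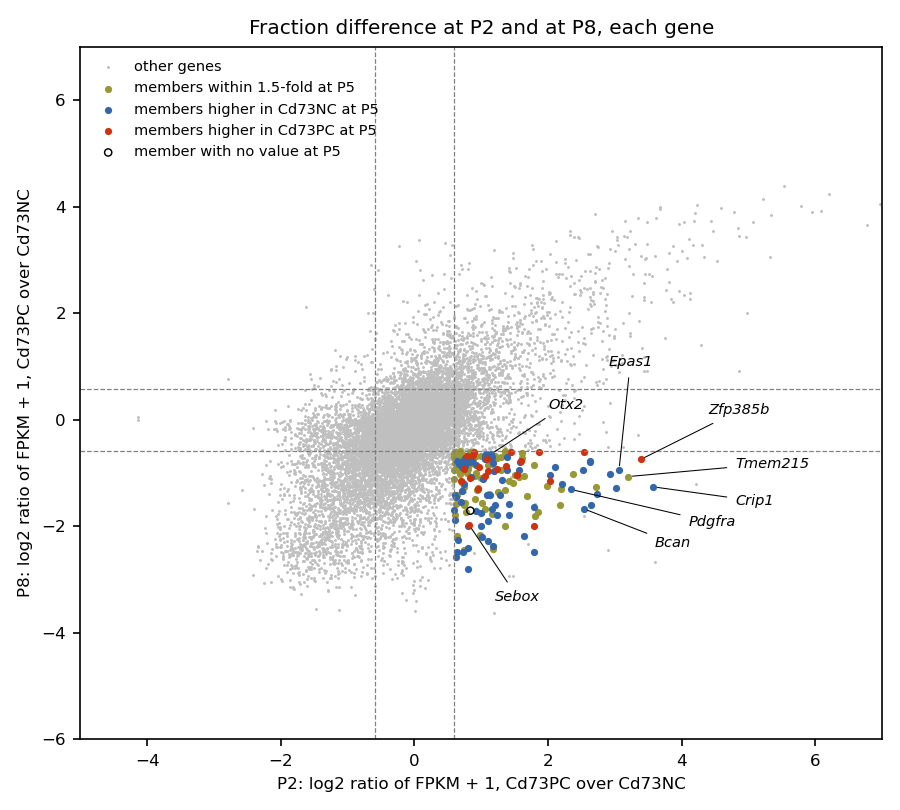
Log2 ratio of FPKM + 1 of Cd73PC over Cd73NC at P2 (x axis) against P8 (y axis), 1 point per gene. Grey points are other genes, coloured points are the 187 members by their side at P5, dashed lines mark 1.5-fold, and the members fill the lower right corner, where the ratio is above 0.58 at P2 and below -0.58 at P8.

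The members differed widely in size of the turn. At P2, 91 members were more than 2-fold higher in Cd73PC, at P8 95 were more than 2-fold higher in Cd73NC, and 53 passed 2-fold at both stages. These values selected the genes and are a description.

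Crip1, Tmem215, and Bcan illustrate courses within the group, and Crip1 and Bcan share a class of course that is described below. Crip1 encodes a small cysteine-rich protein with a LIM domain and lies at chr12:114390223-114392090 of NCBI37/mm9 on the plus strand. Its FPKM was 6.73 at E15 and 12.7 at E18, 3.63 in Cd73NC and 54.3 in Cd73PC at P2, 17.2 against 10.4 at P5, and 11.1 against 4.05 at P8. One library stood above all others, P2 Cd73PC, where Crip1 was 11.9-fold higher than in Cd73NC, and the gene had already changed sides at P5 with a ratio of -0.67. Of 17 listed genes with LIM domains Crip1, Lmo3, and Pdlim3 were members, where members made up 0.86% of all genes. The member Lmcd1, also a LIM domain gene, was not on that list. Crip2 was higher in Cd73NC at each stage, with ratios of -0.93, -1.45, and -2.19.

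Tmem215, a gene for a membrane protein at chr4:40419213-40422686 on the plus strand, followed another course. Its FPKM was 5.26 at E15 and 8.13 at E18, 3.35 in Cd73NC and 39.0 in Cd73PC at P2, 42.6 against 46.4 at P5, and 182 against 86.1 at P8. The gene was on the Cd73PC side 9.20-fold at P2, level at P5 with a ratio of 0.12, and 2.1-fold higher in Cd73NC at P8. Its level rose in both fractions, by 1.12 in Cd73PC and by 5.39 in Cd73NC on the log2 scale from P2 to P8.

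Bcan encodes brevican, a chondroitin sulfate proteoglycan of the matrix around brain cells, and lies at chr3:87791453-87804278 on the minus strand. Its FPKM was 0.20 at E15 and 0.55 at E18, 0.25 in Cd73NC and 6.24 in Cd73PC at P2, 8.88 against 2.28 at P5, and 8.35 against 1.93 at P8. Bcan was near the floor in the embryo and in P2 Cd73NC, and after P2 it was about as high in Cd73NC as it had been in P2 Cd73PC. Of 15 listed genes of the lecticans and the hyaluronan matrix Bcan was the one member, and its relative Ncan had ratios of -1.59 at P2, -2.25 at P5, and -2.77 at P8.

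The promoters of 6 members that stand for these courses and for the bipolar and astrocyte genes described below are given next, as the 300 bases from 250 before to 50 after a RefSeq transcription start, in GRCm38.p6. Capitals mark 3 motifs, searched on both strands. TAATCC is the core of the sites of Crx and Otx2. TGCTGA is part of the site of Nrl. CATCTG is an E box. A motif on the opposite strand appears as its reverse complement. Where a gene has several starts, the window with most of the 3 motifs is shown.
Crip1, chr12:113151762-113152061, plus strand: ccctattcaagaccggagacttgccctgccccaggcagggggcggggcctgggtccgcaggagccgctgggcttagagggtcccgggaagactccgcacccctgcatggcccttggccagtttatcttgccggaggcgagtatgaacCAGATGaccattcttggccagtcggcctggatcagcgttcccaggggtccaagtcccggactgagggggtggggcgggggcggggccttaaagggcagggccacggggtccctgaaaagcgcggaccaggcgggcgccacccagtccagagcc
Tmem215, chr4:40471930-40472229, plus strand: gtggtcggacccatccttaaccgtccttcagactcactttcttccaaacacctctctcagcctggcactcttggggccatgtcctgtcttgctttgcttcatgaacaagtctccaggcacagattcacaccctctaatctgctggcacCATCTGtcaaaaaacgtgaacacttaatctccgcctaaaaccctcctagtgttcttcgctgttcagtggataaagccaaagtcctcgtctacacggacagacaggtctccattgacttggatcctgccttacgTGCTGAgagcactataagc
Bcan, chr3:88000307-88000606, minus strand: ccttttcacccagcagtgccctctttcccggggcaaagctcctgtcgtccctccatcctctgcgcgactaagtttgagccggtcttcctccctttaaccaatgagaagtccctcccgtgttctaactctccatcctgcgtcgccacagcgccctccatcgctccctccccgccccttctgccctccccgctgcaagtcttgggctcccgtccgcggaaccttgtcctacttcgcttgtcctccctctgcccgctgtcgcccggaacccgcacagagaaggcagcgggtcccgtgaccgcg
Otx2, chr14:48665060-48665359, minus strand: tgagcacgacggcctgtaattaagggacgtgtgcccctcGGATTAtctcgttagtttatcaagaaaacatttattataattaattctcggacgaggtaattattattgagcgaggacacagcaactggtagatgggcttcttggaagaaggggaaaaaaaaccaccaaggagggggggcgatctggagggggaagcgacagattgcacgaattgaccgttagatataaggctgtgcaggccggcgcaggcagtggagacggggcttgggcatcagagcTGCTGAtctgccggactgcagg
Samsn1, chr16:75909217-75909516, minus strand: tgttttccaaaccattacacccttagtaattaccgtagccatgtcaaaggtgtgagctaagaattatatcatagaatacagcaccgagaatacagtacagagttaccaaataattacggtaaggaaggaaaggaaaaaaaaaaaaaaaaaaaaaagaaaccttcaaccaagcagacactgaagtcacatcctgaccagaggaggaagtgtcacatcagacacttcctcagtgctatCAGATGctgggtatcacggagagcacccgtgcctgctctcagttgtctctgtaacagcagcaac
Pdgfra, chr5:75152001-75152300, plus strand: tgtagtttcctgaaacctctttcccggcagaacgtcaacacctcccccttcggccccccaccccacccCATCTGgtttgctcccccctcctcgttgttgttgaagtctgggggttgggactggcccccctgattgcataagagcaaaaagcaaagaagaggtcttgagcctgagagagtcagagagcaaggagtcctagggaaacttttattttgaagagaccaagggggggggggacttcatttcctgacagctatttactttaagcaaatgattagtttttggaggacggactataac
RefSeq windows were found for 129 members by symbol, with 181 windows. TAATCC was in 5.52% of these windows and in 7.06% of all 32851 windows of the same length, TGCTGA in 21.5% and 19.5%, and CATCTG in 15.5% and 17.2%. Counted by gene, TAATCC was in 7.75% of the members and 8.14% of all genes, TGCTGA in 27.9% and 21.7%, and CATCTG in 20.9% and 19.2%. No difference was tested, and for CATCTG the direction depended on the count used. None of the 3 motifs was in the window of Bcan, and the Otx2 window shown holds TAATCC and TGCTGA. A match of letters is not a binding site.

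**Figure D2:**
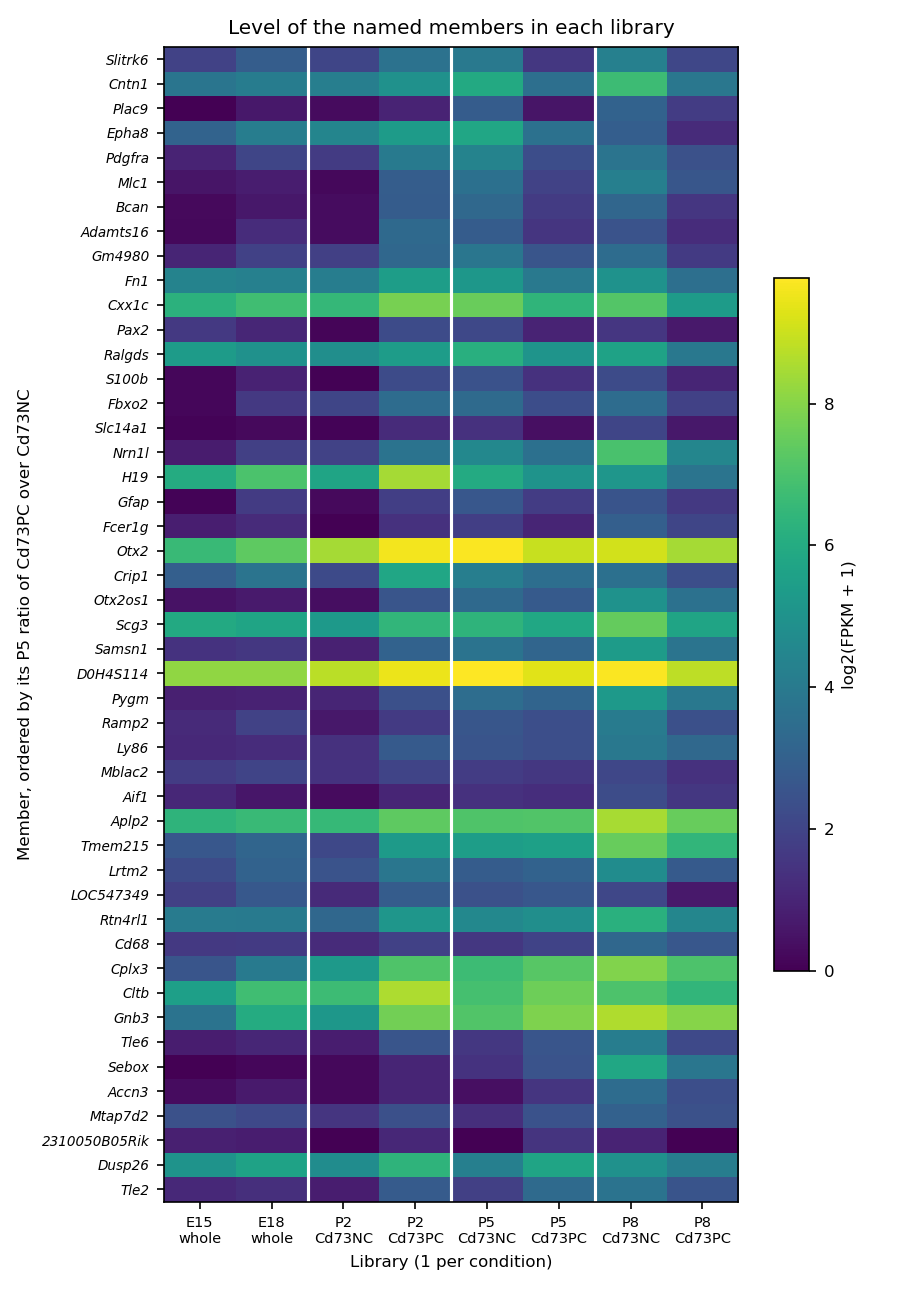
Level of the named members as log2(FPKM + 1), by colour, in each of the 8 libraries (x axis). Members are ordered from the lowest P5 ratio (Slitrk6, -2.39, top) to the highest (Tle2, 1.52, bottom), and white lines separate the stages.

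The P5 libraries were not used to choose the genes, but the side of a gene at P5 followed its sides at P2 and P8, so the P5 counts are a description of the course between them. Of 186 members with values, 72 (38.7%) were already more than 1.5-fold higher in Cd73NC at P5, against 15.5% of all genes. Another 22 (11.8%) were still more than 1.5-fold higher in Cd73PC, against 7.02% of all genes, and 92 lay within 1.5-fold. Among the 13084 genes at FPKM 0.5 or more in a P5 library, a set closer to the members in level, 25.9% were on the Cd73NC side and 11.7% on the Cd73PC side. The median ratio of the members was -0.39, with quartiles of -0.88 and 0.13, and 128 members were below 0. The corresponding median of all genes was 0, and that of the genes at FPKM 0.5 or more was -0.18. Foxp4 had no estimate in P5 Cd73NC and is not counted. The level of Nt5e in Cd73NC was highest at this stage, as given above, and its part in the P5 ratios was not tested.

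Genes with other courses differed at P5. Of 1937 genes that were higher in Cd73NC at both P2 and P8, 1681 (86.8%) were on the same side at P5. Of 926 genes that were higher in Cd73PC at both P2 and P8, 761 (82.2%) were higher in Cd73PC at P5 and 1 in Cd73NC, with a median ratio of 1.08. Of 728 genes that were higher in Cd73PC at P2 and within 1.5-fold at P8, 182 (25%) were on the Cd73PC side at P5 and 25 on the Cd73NC side. The opposite turn, from Cd73NC at P2 to Cd73PC at P8, was made by 45 genes, of which 9 were in Cd73PC and 4 in Cd73NC at P5, with a median of 0.07. The members thus had the lowest P5 median of the sets that began on the Cd73PC side. These sets differ in the P8 values that defined them, so the order of their P5 medians carries no test.

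**Figure D3:**
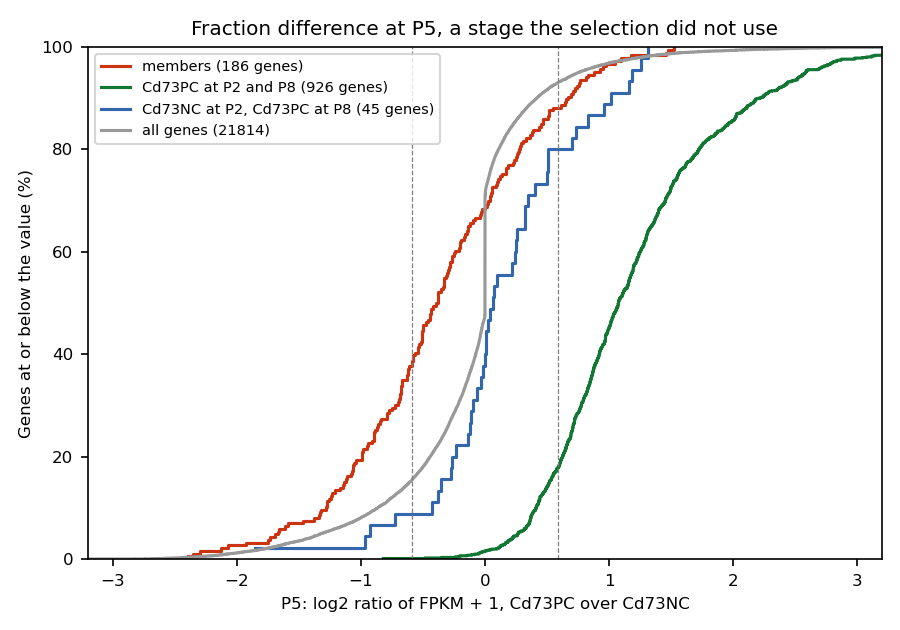
Cumulative share of genes (y axis, %) by log2 ratio of Cd73PC over Cd73NC at P5 (x axis) for the 186 members, the 926 genes in Cd73PC at P2 and P8, the 45 genes with the opposite turn, and all genes. The curve of the members lies to the left, with 38.7% below the lower dashed line at 1.5-fold, and that of the genes kept in Cd73PC lies to the right.

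The 5 members with the lowest P5 ratio were Slitrk6, Cntn1, Plac9, Epha8, and Pdgfra. Slitrk6, a transmembrane protein with leucine-rich repeats that acts on neurite growth, had an FPKM of 2.85 at E15 and 6.39 at E18, 3.09 in Cd73NC and 11.8 in Cd73PC at P2, 14.7 against 1.98 at P5, and 18.1 against 3.18 at P8. Cntn1, the adhesion molecule contactin 1, was at 13.0 at E15 and 16.0 at E18, 16.9 in Cd73NC and 30.1 in Cd73PC at P2, 60.1 against 11.0 at P5, and 102 against 13.8 at P8. Both genes fell in Cd73PC and rose in Cd73NC by P5, so that the sides at P5 were already those of P8. Epha8, an ephrin receptor, ended low in both fractions, with an FPKM of 7.56 and 16.8 in the embryo, 21.0 in Cd73NC and 40.6 in Cd73PC at P2, 53.8 against 11.5 at P5, and 6.55 against 1.3 at P8. Plac9, which encodes a small secreted protein, was at 0.21 in Cd73NC and 0.99 in Cd73PC at P2, 6.26 against 0.48 at P5, and 7.41 against 2.31 at P8. Its level was summed over 3 entries and was low in both fractions at P2. The confidence bounds deposited with its FPKM overlapped between the fractions at P2 and at P8.

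The 5 members with the highest P5 ratio were Tle2, Dusp26, 2310050B05Rik, Mtap7d2, and Accn3. Tle2, a Groucho-type corepressor, had an FPKM of 1.17 at E15 and 1.51 at E18, 0.73 in Cd73NC and 6.05 in Cd73PC at P2, 2.64 against 9.45 at P5, and 12.1 against 4.88 at P8. Its neighbour Tle6 was at 0.72 and 1.10 in the embryo, 0.72 in Cd73NC and 4.93 in Cd73PC at P2, 2.00 against 4.91 at P5, and 16.8 against 3.48 at P8. Both genes stayed on the Cd73PC side until P5 and turned later than Slitrk6 and Cntn1. The 2 loci face each other tail to tail with 60 bases between them, and the library kit did not keep strand, so reads past the end of one gene could be counted for the other. The related Tle1 and Tle3 were higher in Cd73NC at all 3 stages, with ratios from -1.16 to -2.50, and Tle4 had ratios of -0.81, -0.73, and -0.02. Dusp26, a protein phosphatase, was at 25.9 in Cd73NC and 80.6 in Cd73PC at P2, 17.8 against 51.1 at P5, and 29.6 against 16.8 at P8. Accn3, which encodes an acid-sensing ion channel, was at 0.15 against 1.04 at P2, 0.33 against 1.84 at P5, and 9.97 against 4.11 at P8, and Mtap7d2, a microtubule-associated protein, was at 1.84 and 4.28, 1.47 and 4.56, and 7.20 and 4.42. The model 2310050B05Rik overlaps Atcay on the other strand, so its reads cannot be told apart from those of Atcay.

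Within a fraction, most members moved more in Cd73NC than in Cd73PC. From P2 to P8 the median change was 1.64 in Cd73NC and -0.59 in Cd73PC on the log2 scale, and the absolute change was larger in Cd73NC for 134 members and in Cd73PC for 53. In Cd73NC 159 members rose by more than 1.5-fold and 6 fell, where 13.5% of all genes rose and 14.3% fell. In Cd73PC 94 fell and 24 rose, where 14.7% of all genes fell and 6.40% rose. The rise in Cd73NC was largest before P5, with a median of 1.03 up to P5 and of 0.50 after it. From P2 to P5 133 members rose by more than 1.5-fold in Cd73NC and none fell, where 7.93% of all genes rose and 9.51% fell. Of all 1868 genes that were higher in Cd73PC at P2, 952 rose over these days and 6 fell. P2 Cd73NC was the lowest of the 6 sorted libraries for 125 members, and P8 Cd73NC was the highest of all 8 libraries for 105, P2 Cd73PC for 40, P5 Cd73NC for 20, and P5 Cd73PC for 4. Since P2 and P8 values chose the genes, a rise in Cd73NC or a fall in Cd73PC had to be common among them.

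**Figure D4:**
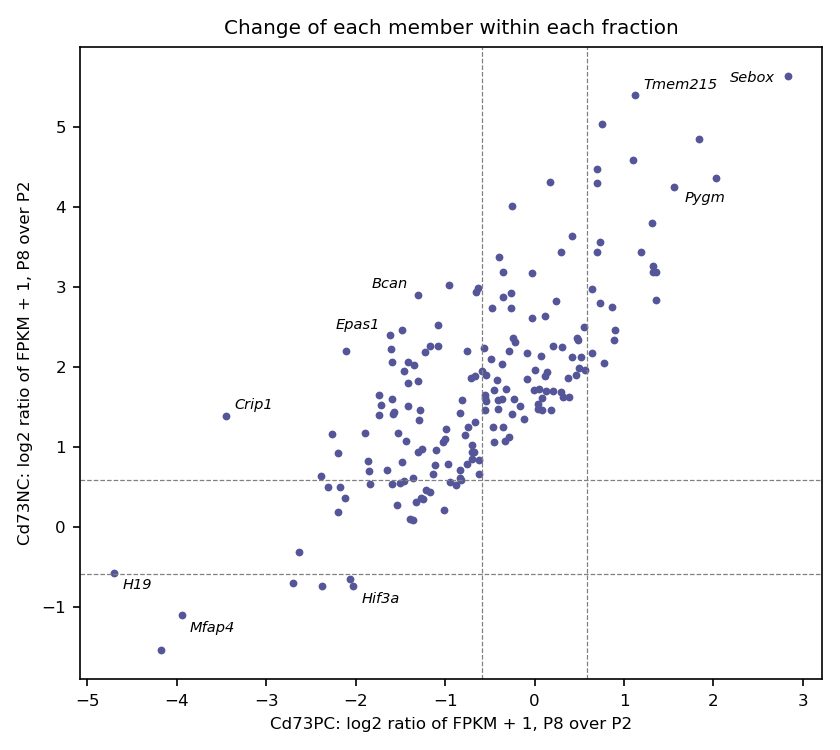
Change of each of the 187 members from P2 to P8 as log2 ratio of FPKM + 1 in Cd73PC (x axis) and in Cd73NC (y axis), 1 point per member, with dashed lines at 1.5-fold. Most points lie high and left of the centre, with Sebox and Tmem215 at the top and H19 and Mfap4 at the lower left.

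The courses fell into 5 classes. A fall in Cd73PC with a rise in Cd73NC was the course of 66 members, among them Crip1, Bcan, Pdgfra, Otx2, and Slitrk6. Cd73PC stayed within 1.5-fold while Cd73NC rose for 69, among them Cplx3, Gnb3, Gfap, Tle2, Tle6, and Aplp2. Both fractions rose for 24, including Tmem215, Sebox, Samsn1, Nrn1l, and Pygm. Cd73PC fell while Cd73NC stayed within 1.5-fold for 22, including H19, Rian, Cltb, and Dusp26. Both fell for 6, namely AI464131, Epha8, Hif3a, Mfap4, Mtnr1a, and Smpdl3a.

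The genes highest in the 4 libraries of the selection include Otx2, D0H4S114, Gnb3, Cltb, Aplp2, Cplx3, and Scg3. Otx2, the homeobox factor needed for photoreceptor and bipolar fate, had an FPKM of 97.0 at E15 and 162 at E18, 349 in Cd73NC and 777 in Cd73PC at P2, 851 against 492 at P5, and 552 against 353 at P8. Otx2 was abundant in every library, and its highest value moved from Cd73PC at P2 to Cd73NC at P5. Otx2os1, an antisense gene 6416 bases from Otx2, was at 0.30 in Cd73NC and 4.93 in Cd73PC at P2, 9.07 against 5.81 at P5, and 30.3 against 11.7 at P8. It rose in both fractions up to P8, unlike Otx2. The annotated genes do not overlap.

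Gnb3 encodes the G protein beta subunit of cones and ON bipolar cells. Its FPKM was 12.3 at E15 and 63.0 at E18, 35.1 in Cd73NC and 208 in Cd73PC at P2, 139 against 236 at P5, and 388 against 255 at P8. Gnb3 rose in Cd73NC at each step while Cd73PC held its level, so the turn came after P5. Cltb, a clathrin light chain, had its highest value in P2 Cd73PC: it was at 45.2 and 108 in the embryo, 102 in Cd73NC and 375 in Cd73PC at P2, 118 against 193 at P5, and 131 against 85.3 at P8. D0H4S114 ran from 280 at E18 to 874 in P5 Cd73NC, with 436 and 714 at P2, 645 in P5 Cd73PC, and 831 and 447 at P8. Aplp2, which encodes a relative of the amyloid precursor protein, was at 81.6 and 98.5 in the embryo, 93.3 against 162 at P2, 133 against 139 at P5, and 359 against 178 at P8.

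Genes of synapses and secretion followed. Cplx3, a complexin of ribbon synapses, had an FPKM of 4.98 at E15 and 14.8 at E18, 38.3 in Cd73NC and 135 in Cd73PC at P2, 102 against 149 at P5, and 238 against 132 at P8. Cplx3 held between 132 and 149 in Cd73PC while it rose in Cd73NC. Scg3, a secretogranin of secretory granules, was at 60.4 and 51.0 in the embryo, 37.9 against 86.3 at P2, 80.6 against 56.0 at P5, and 177 against 50.8 at P8. Of 38 listed genes of synaptic vesicles and release, Cplx3, Sv2a, and Unc13a were members, and the latter pair is given after their values were seen. Sv2a, a vesicle glycoprotein, was still on the Cd73PC side at P5 with 16.4 in Cd73NC and 32.0 in Cd73PC, and Unc13a, a priming factor, was level with 4.26 and 4.93.

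Some members act in the growth of neurites, and no list of such genes was counted. Of 100 genes counted by symbol as leucine-rich repeat genes, 4 were members (Elfn2, Lrrc24, Lrrtm3, and Slitrk6), where members made up 0.86% of all genes. At P5, 2 of them were higher in Cd73PC and 2 in Cd73NC. The members described next were not in that count. Nrn1l, a relative of neuritin, had an FPKM of 0.68 at E15 and 2.62 at E18, 2.85 in Cd73NC and 12.3 in Cd73PC at P2, 22.8 against 11.3 at P5, and 125 against 21.3 at P8. Rtn4rl1, a Nogo receptor-like protein, was at 15.6 and 15.2 in the embryo, 8.73 against 34.3 at P2, 22.7 against 27.6 at P5, and 73.2 against 21.3 at P8. Its relative Rtn4rl2, a member named after its values were seen, was at 4.29 against 15.1 at P2, 38.3 against 33.3 at P5, and 108 against 64.8 at P8. Rtn4rl1 fell in Cd73PC after P2 while Rtn4rl2 rose in both fractions, and the founding gene Rtn4r stayed at or below 0.84 in all sorted libraries. Lrtm2, a membrane protein with leucine-rich repeats, was at 4.59 against 13.3 at P2, 6.12 against 7.36 at P5, and 25.8 against 5.74 at P8. It overlaps Cacna2d4 on the other strand, which was at 2.93 against 26.7 at P2, 30.1 against 43.3 at P5, and 67.0 against 64.8 at P8, and without strand the reads of the pair cannot be told apart.

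Bipolar cell genes contributed 3 members of 32 listed, namely Otx2, Sebox, and Samsn1, while 5 other listed genes that passed both limits (Cabp5, Pcp2, Gng13, Lhx3, and Trpm1) are among those left out by name. Sebox, a homeobox gene, was listed at 0 at E15, at 0.12 at E18, 0.14 in Cd73NC and 1.02 in Cd73PC at P2, 1.70 against 4.6 at P5, and 56.0 against 13.4 at P8. Sebox remained on the Cd73PC side at P5 and then rose in both fractions. Samsn1, an adaptor protein with SAM and SH3 domains, was at 1.71 and 1.97 in the embryo, 0.86 against 7.43 at P2, 12.1 against 8.23 at P5, and 40.3 against 12.6 at P8. The whole list had 11 genes higher in Cd73PC and 10 higher in Cd73NC at P2, where 1868 and 3141 of all 21825 genes were. At P8 29 listed genes were higher in Cd73NC, where 18.6% of all genes were. The summed FPKM of the list was 670 in Cd73NC and 1130 in Cd73PC at P2, of which Otx2 gave 349 and 777. At P8 the sums were 4592 and 1108. The median P2 ratio of the list was 0.04.

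Genes known from astrocytes formed a further set. Of the 6 genes of the astrocyte list, 4 were members (Gfap, Pdgfra, Pax2, and S100b), and Bcan, Mlc1, Agt, and Slc14a1 stand on a further list of 23 that was written after the members' names had been seen. Each of these genes was more than 1.5-fold higher in Cd73NC at P5, with ratios from -2.07 to -0.89. Pdgfra, the receptor of platelet-derived growth factor A that marks retinal astrocytes and glial precursors, had an FPKM of 0.96 at E15 and 3.09 at E18, 2.22 in Cd73NC and 15.4 in Cd73PC at P2, 19.6 against 3.91 at P5, and 12.4 against 4.42 at P8. Mlc1, a membrane protein of astrocyte end feet, was at 0.45 and 0.72 in the embryo, 0.17 against 6.32 at P2, 11.3 against 2.79 at P5, and 17.8 against 5.15 at P8. In both Pdgfra and Mlc1 Cd73PC was the high fraction at P2 alone, and Cd73NC was above 10 FPKM at P5 and P8.

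The intermediate filament gene Gfap was at 0.05 at E15 and 2.27 at E18, 0.19 in Cd73NC and 2.52 in Cd73PC at P2, 5.22 against 2.36 at P5, and 4.88 against 2.04 at P8. S100b, a calcium-binding protein of glia, was at 0.04 against 3.76 at P2, 4.54 against 1.63 at P5, and 3.70 against 1.04 at P8. Pax2, a paired box factor of the optic stalk and of astrocyte precursors, was at 0.09 against 3.71 at P2, 3.32 against 0.97 at P5, and 1.96 against 0.59 at P8. The urea transporter gene Slc14a1 was at 0.06 against 1.31 at P2, 1.60 against 0.31 at P5, and 3.08 against 0.54 at P8. All 4 were below 6 FPKM in every library, so their ratios rest on low levels. The other genes of the list, Aldh1l1 and Igfbp3, were not members. The summed FPKM of the astrocyte list was 3.63 in Cd73NC and 26.3 in Cd73PC at P2, 35.2 against 10.9 at P5, and 25.8 against 8.89 at P8.

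The further list did not move as one. Among its other genes Sox9, Id3, Ncan, Tril, and Ndrg2 were higher in Cd73NC at all 3 stages, Aldoc was higher in Cd73PC at P2 with a ratio of 3.35 and level at P8 with -0.29, and Fgfr3 was higher in Cd73PC at all 3 stages. Müller glia genes, many of which are shared with astrocytes, were on the Cd73NC side for 16 of 23 at P2 and for 22 of 23 at P8, and Slc14a1 was the one member among them. Among all 21825 genes 3141 were on the Cd73NC side at P2 and 4051 at P8. A smaller number of cells of a type and less RNA per cell cannot be told apart in such libraries.

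**Figure D5:**
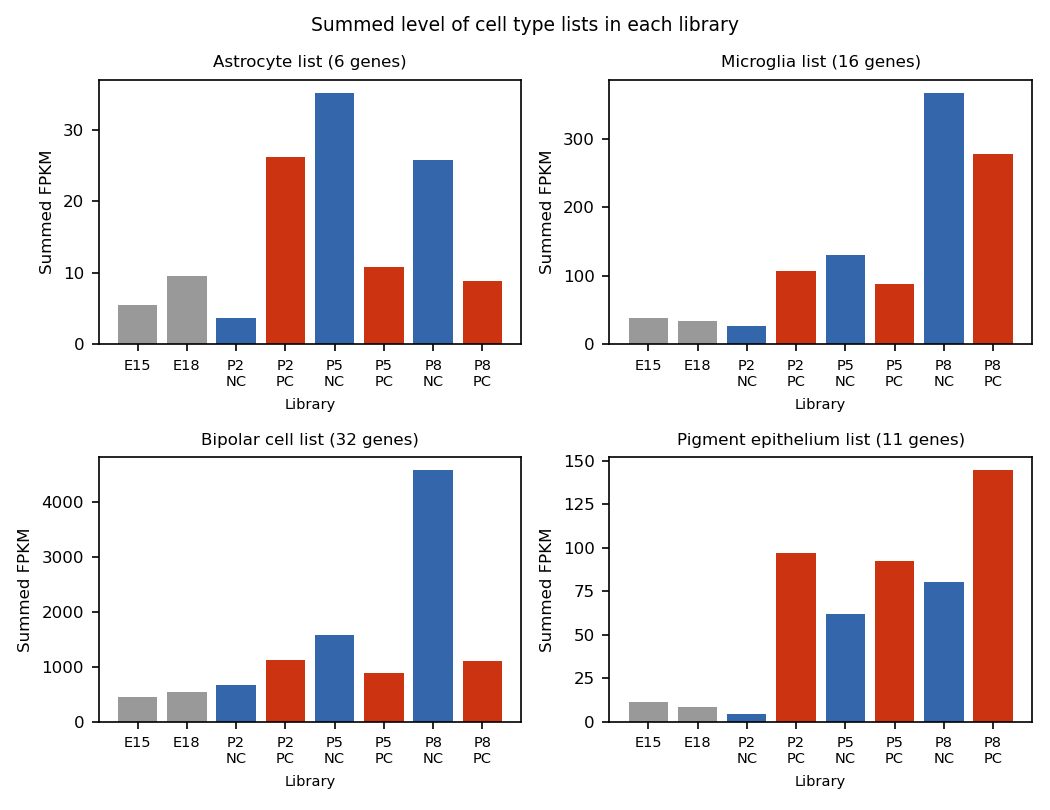
Summed FPKM (y axis) of 4 cell type lists in each library (x axis): whole retina in grey, Cd73NC in blue, and Cd73PC in red. The astrocyte bar is higher in Cd73PC at P2 (26.3 against 3.63) and higher in Cd73NC at P8 (25.8 against 8.89), and the pigment epithelium list is higher in Cd73PC at each stage.

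Genes of other cell types moved in P2 Cd73PC as well. Of 16 microglia genes, 15 were more than 1.5-fold higher in Cd73PC at P2, against 8.56% of all genes. In Cd73NC 6 were higher at P5 and 4 at P8, against 15.5% and 18.6% of all genes. The summed FPKM of these 16 genes was 26.4 in Cd73NC and 107 in Cd73PC at P2 and 367 and 278 at P8. The members among them were Aif1, Fcer1g, and Cd68. Fcer1g, a signalling chain of immune receptors, was listed at 0 in Cd73NC and was at 1.62 in Cd73PC at P2, 2.53 against 1.04 at P5, and 6.84 against 3.09 at P8. Aif1, a calcium-binding protein of microglia, was at 0.23 and 1.04 at P2 and at 3.78 and 2.02 at P8, and Cd68, a lysosomal protein of phagocytes, was at 1.30 and 2.70 and at 8.50 and 5.31. Cd68 was near the limit at P8, at 1.505-fold. The deposited confidence bounds of the fractions overlapped for Cd68 at P2 and P8 and for Aif1 at P8. Of 11 pigment epithelium genes 8 were higher in Cd73PC at P2 and 5 at P8, and none was a member. Among all 21825 genes 1868 were higher in Cd73PC at P2 and 1644 at P8. The part of these cells in the members' ratios was not tested. Ramp2, a receptor component that was the one member of 14 endothelial genes, was at 0.55 against 2.20 at P2, 5.16 against 4.07 at P5, and 15.7 against 4.21 at P8. No member was on the lists of amacrine cells, ganglion cells, horizontal cells, pericytes, erythroid cells, progenitors, or rods.

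Some members encode matrix or secreted proteins. No list of such genes was counted, and Fbln2, Mfap4, and Mmp2 were chosen after their values were seen. Fn1, fibronectin, had an FPKM of 19.9 at E15 and 18.4 at E18, 16.8 in Cd73NC and 42.1 in Cd73PC at P2, 35.5 against 14.5 at P5, and 30.3 against 10.8 at P8. Adamts16, a secreted metalloprotease, was at 0.16 and 1.35 in the embryo, 0.24 against 9.04 at P2, 6.12 against 1.83 at P5, and 4.70 against 1.33 at P8. Fbln2, Mfap4, and Mmp2, a fibulin, a microfibril protein, and a gelatinase, also changed sides by P5, with P5 ratios of -1.24, -1.73, and -1.07. Mfap4 then fell in both fractions to 8.31 in Cd73NC and 1.91 in Cd73PC at P8, from 19.1 and 43.8 at P2.

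Imprinted and hypoxia-related genes were among the members, and apart from H19 they are given here after their values were seen. H19, a maternally expressed long noncoding RNA, had an FPKM of 63.8 at E15 and 128 at E18, 51.7 in Cd73NC and 349 in Cd73PC at P2, 61.6 against 31.6 at P5, and 34.4 against 12.5 at P8. H19 fell in Cd73PC by 4.70 on the log2 scale from P2 to P8. Igf2, the neighbouring imprinted gene that was left out by name, was at 7.92 against 165 at P2, 98.5 against 39.3 at P5, and 92.3 against 39.2 at P8. From a list of 30 imprinted genes written after the members' names had been seen, H19, Meg3, and Rian were members, and Plagl1, Grb10, and Nnat were higher in Cd73NC at all 3 stages. Meg3 and Rian lie 32216 bases apart in 1 cluster, and Meg3 was at 35.5 and 83.6 in the embryo, 4.69 against 8.54 at P2, 7.36 against 5.95 at P5, and 8.29 against 2.05 at P8. Rian was at 26.3 and 58.6 in the embryo, 15.8 against 27.5 at P2, 14.3 against 9.50 at P5, and 12.5 against 3.59 at P8. Both had their highest value at E18.

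Epas1, a hypoxia-inducible transcription factor, was at 0.82 at E15 and 4.04 at E18, 1.56 in Cd73NC and 20.4 in Cd73PC at P2, 15.1 against 6.76 at P5, and 12.5 against 5.99 at P8. Adm, which encodes the peptide adrenomedullin, was at 0.13 against 5.99 at P2, 3.5 against 1.46 at P5, and 1.53 against 0.45 at P8. The list of 19 measured hypoxia genes, also written after the names had been seen, held 5 members (Epas1, Adm, Hif3a, Apln, and Angpt2), which lay between 0.13 and 2.20 in P2 Cd73NC. The glycolytic gene Pgk1, the kinase gene Pdk1, and the target Bnip3 of the same list were higher in Cd73NC at P2, P5, and P8. Ldha was higher in Cd73PC at each stage. The immediate early genes Fos, Egr1, and Dusp5 were members of 24 listed, while Ier3 and Junb were higher in Cd73PC at P2 and P8.

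The embryonic libraries were not used for the choice. From E15 to E18, 49 of 186 members (26.3%) rose by more than 1.5-fold, against 4.61% of all genes, and 4 (2.15%) fell, against 2.10%. Among genes at FPKM 0.5 or more in a P5 library 6.91% rose, and among the 926 genes kept in Cd73PC 20.8% rose. The median change of the members was 0.23 and that of all genes was 0.

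The loci of the 187 members were spread over 20 chromosomes, and 177 are annotated as protein coding. Within 100 kb of each other lay 12 pairs of neighbouring members, among them Tle2 and Tle6, Otx2 and Otx2os1, Meg3 and Rian, Mt3 and Mt2, and Cplx3 and Lman1l, which are 752 bases apart. Another gene overlapped 30 members, in 21 cases on the other strand, and reads of such pairs are uncertain. Cxx1c has near-identical copies: it was at 91.1 against 216 at P2, 184 against 82.6 at P5, and 142 against 40.5 at P8, and Cxx1a and Cxx1b had ratios of 0.57 and 0.52 at P2 and -1.19 and -1.17 at P8, with P2 ratios just inside 1.5-fold. LOC547349 overlaps the histocompatibility gene H2-D1, and its reads may belong to that family. Xist, a member near the limit, was at 25.5 and 34.7 in the embryo and between 1.96 and 8.06 in the sorted libraries.

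Pygm, the muscle form of glycogen phosphorylase, had an FPKM of 0.83 and 0.93 in the embryo, 1.02 in Cd73NC and 4.19 in Cd73PC at P2, 10.1 against 7.84 at P5, and 37.2 against 14.3 at P8. Fbxo2, an F-box protein that recognises glycoproteins, had ratios of 1.41 at P2, -1.07 at P5, and -1.58 at P8. Pygm rose in both fractions, whereas Fbxo2 fell in Cd73PC and rose in Cd73NC. Zfp385b, a zinc finger gene named after its values were seen, was at 4.69 against 58.6 at P2, 49.4 against 77.8 at P5, and 112 against 66.1 at P8, and had the largest P2 ratio after Crip1.

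Several gene families held members, which made up 0.86% of all genes. Of 131 genes counted as homeobox genes by symbol, Otx2, Pax2, and Pax8 were members, and all 3 were higher in Cd73NC at P5. That count missed the homeobox gene Sebox, also a member, which was on the Cd73PC side at P5 with a ratio of 1.05. Members were 1 of 58 genes of heterotrimeric G proteins and their regulators (Gnb3), 1 of 54 genes of ephrins, netrins, and slits (Epha8), and 2 of 95 cadherins and protocadherins (Cdh12 and Pcdhb18). None of 38 genes counted by symbol as basic helix-loop-helix genes was a member. Missed by that count were the members Epas1, Hif3a, and Mxd4, which encode proteins of this class. Of 15 cone genes Gnb3 was the one member, and 9 were higher in Cd73PC at P2 and 7 at P8. The counts over all 21825 genes were 1868 at P2 and 1644 at P8.

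Many members rested on low levels. All 4 libraries of the selection were below FPKM 10 for 84 members and below FPKM 2 for 9, while 18 members reached 100. A member was listed at 0 in at least 1 of these libraries in 5 cases. The confidence bounds deposited with the FPKM did not overlap for 178 members at P2, 175 at P8, and 170 at both, and these bounds describe 1 library each. At the limit, the members Ly86, Mblac2, and Ralgds lay just inside with a smaller fold that rounds to 1.5, and Sfrp4, Trib2, and Cabp2 lay just outside, the latter pair with 1.49. Ly86 was at 1.64 against 5.78 at P2 and 13.9 against 8.93 at P8, while Cabp2, a bipolar cell gene, was at 0.10 against 1.27 at P2 and 16.5 against 10.7 at P8.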

How the data were processed

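RNA of 8 libraries of mouse retina was measured by RNA-seq from poly(A) RNA, with random primers, no strand, and single reads of 36 bases. The authors deposited 1 table of FPKM per library. Per the submitters' processing notes, CASAVA 1.8.2, bcl2fastq 1.8.4, TopHat2 2.0.8b, and Cufflinks 2.1.1 were used with mm9, with no roles given. The tables hold 23021 entries, of which 799 small RNAs were left out, and entries of 1 symbol were summed to 21825 genes (234 symbols had several). In 20 genes an entry had no successful estimate and the value was treated as missing. Ratios were taken on FPKM + 1 with Python 3.11.15, numpy 2.4.6, and pandas 2.3.3, and the script was tested on simulated data. With 1 library per condition no test was run, and the number of reads behind each FPKM is unknown.

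The members, the gene lists, and the comparisons were chosen with earlier results of these data known. The lists of imprinted, immediate early, further astrocyte, and hypoxia genes were written after the members' names were seen. Genes named by rule were the 20 members with the largest smaller ratio, the 10 with the highest FPKM in the libraries of the selection, Crip1, Tmem215, Bcan, members on a cell type list, the 3 genes on each side of the limit, and the 5 members at each end of the P5 ratio, of which some are not reported here. Cufflinks confidence bounds served as an alternative. Alternatives were the pseudocount, the scaling, the fold, the treatment of entries, and the small RNAs. Promoter windows came from RefSeq, GRCm38.p6, and FPKM loci from mm9, and the builds were not mixed.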

Additional observations from a re-analysis of the deposited data

Results flagged for a closer look

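The 187 members are themselves a difference between stages: all were higher in Cd73PC at P2 and in Cd73NC at P8, and this was the rule that chose them. At P5, 72 of them had moved to Cd73NC, which is the opposite side to P2, and 22 were still in Cd73PC, which is the opposite side to P8. With 1 library per condition none of these differences was tested. Outside the genes analysed, 13 small RNAs passed the same limits, among them Snora64, Snora7a, Mir425, and Mir343. FPKM of such short genes was not used here for comparisons.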

How the results depend on the processing

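No paired analysis was possible because each group has 1 library, and for the same reason no library could be left out. The number of members depended on the pseudocount and the fold. With a pseudocount of 0.1 there were 596 members, of which 82 were in Cd73PC and 231 in Cd73NC at P5, and 189 rose and 79 fell from E15 to E18. With a pseudocount of 0 these values were 1156, 254, 469, 377, and 286. At 2-fold they were 53, 1, 20, 8, and 0, with the 2-fold limit also applied to the P5 and embryonic counts. Quantile normalization gave 133 members, of which 112 were shared, and 32 rose and 7 fell from E15 to E18. Chosen after seeing the data, a limit of FPKM 10 in a library of the selection left 103 members, with 14 in Cd73PC and 37 in Cd73NC at P5 and 31 that rose in the embryo, and the return of the genes left out by name gave 7 that fell. The median P5 ratio was recomputed in all settings but the one that kept small RNAs and the one that required separate confidence bounds, and was negative, from -0.59 at 2-fold to -0.20 under quantile normalization. Of 587 recomputed ratios of named genes 49 moved, all under the pseudocounts 0 and 0.1, and none changed sign. The call past 1.5-fold was lost by 16 of them, 9 under quantile normalization, 6 under upper quartile scaling, and 1 with entries not summed, and 1 further ratio had no finite value. The median of all genes at FPKM 1 or more was -0.10, -0.13, and -0.16 for P2, P5, and P8 as deposited and 0.00, 0.05, and 0.08 after quantile normalization.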
